A study of Nematostella vectensis with 15 samples.

Results

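The comparison of warm with cold culture in the starlet sea anemone *Nematostella vectensis* set the 5 RNA-seq libraries of polyps kept at 25 °C against the 5 libraries of polyps kept at 15 °C. These 10 libraries were chosen by their culture temperature in the sample labels, of 15 libraries in all, and the remaining 5 came from culture at 20 °C. All polyps were acclimated adult females of the F1 generation of the CH2XCH6 cross, kept in artificial sea water of 16‰ salinity, and all libraries were made from the mesenteric body portion with a stranded kit that enriches polyadenylated RNA. Temperature was the only label that differed between the groups. The animals share parents, so the results hold for 1 laboratory family, and the labels do not say whether a library came from 1 polyp or from several, nor whether the polyps of a temperature shared a culture box. The effect of temperature and that of a shared box or collection day cannot be told apart. Each p-value therefore measures the spread between these libraries.

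Sea anemones do not regulate their body temperature, and *Nematostella* lives in shallow estuaries where the water warms and cools with the weather and the season. The mesenteries are folds of tissue that hang into the gut cavity. They carry the gonads, the muscles that retract the polyp, and the filaments that digest prey. A long shift in culture temperature can change both the activity of genes in such a tissue and the mixture of its cells. In RNA from whole tissue, fewer cells of a type and less RNA per cell cannot be told apart.

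Counts summed over the 2 columns of each library ranged from 3526175 to 9619520 fragments at 15 °C, with a median of 7727786, and from 8510055 to 22160961 at 25 °C, with a median of 11095025. The warm libraries were thus deeper. Every library was therefore also thinned to 3526175 fragments. Thinned results are given for the number of calls, genes of many exons, same-strand neighbours, named genes, and the composition by gene length and exons. None are given for the classes of abundance, the larger changes, or the runs along scaffolds, so the part of depth in these was not tested. The first principal component of log2 CPM (counts scaled to the library total) held 46.8% of the variance, and the 15 °C libraries lay between -52.3 and -22.2 on it and the 25 °C libraries between 32.2 and 41.4. Across genes, each of the 10 libraries had its highest Spearman correlation with another library of its own temperature. The mean correlation was 0.974 within 15 °C, 0.983 within 25 °C, and 0.950 between them. The biological coefficient of variation common to all genes was 0.182 at 15 °C and 0.148 at 25 °C. The gene models bear database identifiers only, and none of them matched the table of gene symbols. The tissue label could therefore not be checked against marker genes, and genes are described by their structure and place.

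Of 17818 genes with enough counts to test, 5641 differed between 25 and 15 °C at an adjusted p under 0.05 in edgeR's quasi-likelihood test, which is 31.7% of the genes tested. Expression was higher at 25 °C for 2665 genes (15.0%) and lower for 2976 (16.7%). Most of these differences were small. The median change of the genes that rose was 0.60 on the log2 scale, a 1.51-fold higher level, with a middle range (first to last quartile) from 0.43 to 0.86. The median change of the genes that fell was -0.69, a 1.61-fold lower level, with a middle range from -1.01 to -0.46. Among the called genes, 77.9% changed by less than 1 on the log2 scale, and the smallest change called was 0.19. Over all genes tested the median, which the normalization holds near 0, was 0.005 with a middle range from -0.29 to 0.27.

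Larger changes were less frequent and were more often falls. A called change of at least 1 on the log2 scale was found in 1249 genes (7.01% of those tested), of which 491 rose and 758 fell. At least 2 was reached by 79 rises and 117 falls, and at least 3 by 11 rises and 21 falls. For 3488 genes (19.6%), every library of one temperature lay above every library of the other, 1818 of them higher and 1670 lower at 25 °C. Of the called genes, 58.6% had no such overlap between the groups. The 20 °C libraries entered the filter on low counts and the estimate of the spread. Their mean lay between those at 15 and 25 °C for 71.0% of the genes that rose and for 80.1% of the genes that fell. Genes called for a difference between 15 and 25 °C are more likely to have their 20 °C mean between the others. The share over all genes tested was not computed.

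The genes with the largest changes that did not overlap between the groups were low or nearly silent at one of the temperatures. NEMVEDRAFT_v1g245520, a gene of 2 exons on scaffold 164 (311687 to 314467, plus strand), had 1.98, 0.661, 0.322, 2.38, and 1.42 CPM in replicates 1 to 5 at 15 °C. In the 25 °C replicates it had 31.2, 32.7, 36.2, 29.4, and 30.8 CPM. All the warm libraries stood within a narrow band far above the cold ones, and the mean rose from 1.35 ± 0.87 to 32.1 ± 2.62 CPM (SD, n = 5 each). The log2 change was 4.43 ± 0.29 (SE), with an adjusted p of 1.5e-08 in edgeR. At 20 °C the level was 27.3 ± 8.05 CPM (SD, n = 5), near that at 25 °C. Its model overlaps one of 9 exons on the opposite strand (313516 to 322283), which went the other way by -0.30 with an adjusted p of 0.019 in edgeR. The study's methods give the default settings of featureCounts, which do not use strand. If the deposited counts were made in this way, fragments of overlapping genes on opposite strands were not told apart by their strand.

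NEMVEDRAFT_v1g108202, a single-exon gene of 357 bp on scaffold 89 (100365 to 100721, minus strand), had 0.248, 0.551, 0.322, 0.596, and 1.03 CPM in the 15 °C replicates. At 25 °C it had 13.8, 9.83, 13.0, 11.4, and 6.44 CPM. The lowest warm library was still several times above the highest cold one. The mean rose from 0.549 ± 0.306 to 10.9 ± 2.92 CPM (SD, n = 5), a log2 change of 4.22 ± 0.29 (SE) with an adjusted p of 6.4e-09 in edgeR. The 15 °C value rests on 1 to 8 fragments per library. This gene did not rise alone. The next 2 models upstream in the scaffold's numbering, both also on the minus strand, rose by 3.96 (94699 to 95268, 1 exon) and by 3.76 (95783 to 98853, 5 exons), with adjusted p of 1.3e-07 and 6.3e-07 in edgeR. The one after these (89376 to 91947) changed by 0.11 with an adjusted p of 0.63, so the block of strong rises ended there.

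NEMVEDRAFT_v1g211382, a single-exon gene of 1761 bp on scaffold 137 (109643 to 111403, minus strand), was the reverse. It had 11.3, 11.2, 15.5, 8.82, and 11.5 CPM at 15 °C and 0.0907, 0.240, 0.405, 0.441, and 0.258 CPM at 25 °C. The warm values rest on 2 to 5 fragments per library, close to the limit of detection. The mean fell from 11.7 ± 2.40 to 0.287 ± 0.141 CPM (SD, n = 5), a log2 change of -5.41 ± 0.28 (SE) with an adjusted p of 1.8e-10 in edgeR. At 20 °C the mean was 2.55 ± 0.655 CPM, between the others. Its neighbours did not follow it: the model before it changed by -0.17 (adjusted p of 0.31 in edgeR) and the model after it rose by 0.43 (adjusted p of 0.028).

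NEMVEDRAFT_v1g144189, a short single-exon model of 168 bp on scaffold 956 (29171 to 29338, minus strand), was counted at 15 °C only. It had 9.80, 11.5, 3.87, 1.19, and 3.22 CPM there, from 79, 104, 12, 10, and 25 fragments. No fragment was counted in any of the 5 libraries at 25 °C, nor in any at 20 °C. The cold libraries spread widely, with a mean of 5.91 ± 4.46 CPM (SD, n = 5). Taking 3 fragments over the 65755484 of the 25 °C group as the most that a count of 0 allows, the gene was at least 134-fold lower at 25 °C, where counting error is the only error covered. The adjusted p was 0.0056 in edgeR. It was the only called gene with no fragment in one of the temperatures, and it did not pass the filter on low counts when the 20 °C libraries were left out of the fit.

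**Figure D1:**
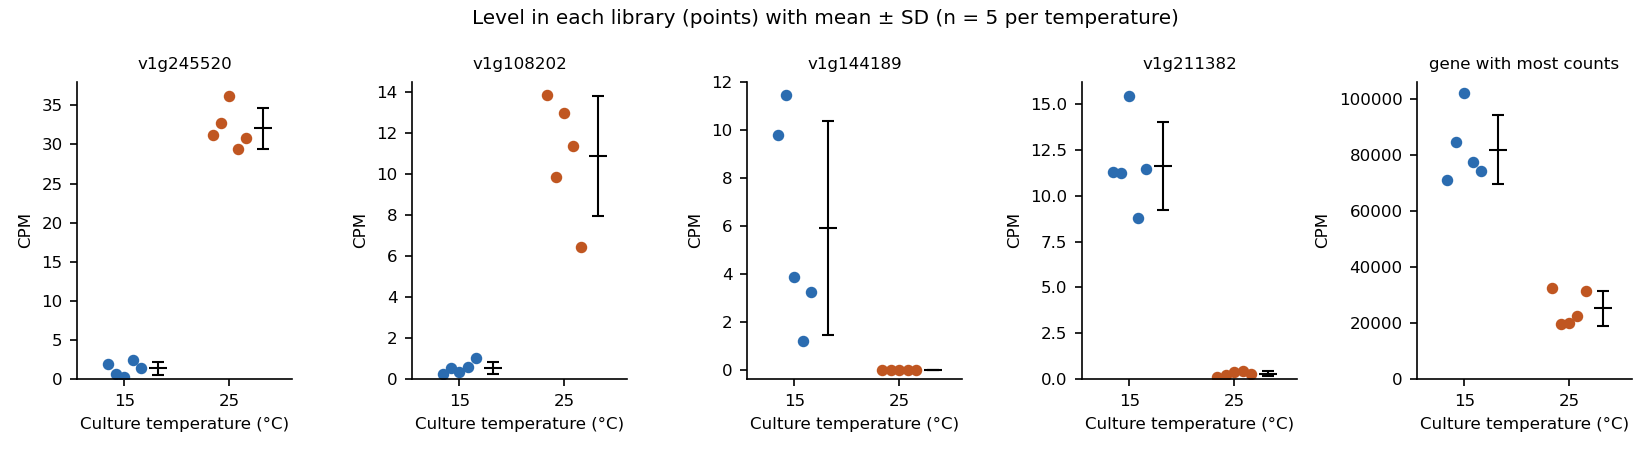
CPM (y axis) of the 2 genes that rose most, the 2 that fell most, and of the gene with most counts, in each library at 15 and 25 °C (x axis). Points are libraries and bars are means with their SD over 5 libraries. In every panel the libraries of the temperatures do not overlap, and v1g144189 was at 0 in all 5 warm libraries.

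A change of moderate fold also moved a large part of the RNA. The gene with most counts, a model of 25 exons and 4467 bp of exon on scaffold 57 (739636 to 754598, minus strand), had 70815, 84392, 101917, 77344, and 74125 CPM in replicates 1 to 5 at 15 °C. At 25 °C it had 32635, 19680, 19929, 22464, and 31335 CPM. The groups were far apart, with the highest warm library below the lowest cold one by more than the range of the warm libraries. The log2 change was -1.70 ± 0.23 (SE) with an adjusted p of 2.2e-05 in edgeR. Its share of all fragments went from 7.83% ± 0.87 at 15 °C to 2.58% ± 0.69 at 25 °C (SD, n = 5). This gene was singled out after its values were seen, and its weight in the composition of the libraries is given below.

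The genes that fell held a larger part of the RNA in the cold than the genes that rose held in the warm. Genes called lower took 29.4% ± 1.63 of the fragments at 15 °C and 16.3% ± 1.19 at 25 °C, and genes called higher took 10.1% ± 0.50 and 17.3% ± 0.38 (SD, n = 5). These shares follow from how the genes were chosen and are given as a description. The gene with most counts was among those called lower, with 7.83% of the fragments at 15 °C and 2.58% at 25 °C. Of the 100 genes with most counts, 8 were called higher and 14 lower. Of the 100 with the highest level per exon length (RPKM, fragments relative to the exon length of the model and the library total), 6 were higher and 9 lower, a smaller part in both cases than the 31.7% of all genes.

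The share of called genes depended on abundance, and more so for rises than for falls. The genes tested were divided into 10 classes of equal size by mean RPKM. In the lowest class (0.126 to 1.75), 7.69% of the genes were called higher and 16.9% lower. In the eighth class (15.8 to 23.7) it was 20.6% higher and 16.3% lower, and in the highest class 17.2% higher and 20.0% lower. Falls thus stayed between 14.0% and 20.0% in every class of RPKM, while rises ranged from 7.69% to 20.6%. The size of the called changes went the other way. The median absolute change of called genes was 1.04 on the log2 scale in the lowest class, where the median SE of a gene was 0.29, and 0.51 in the ninth class, where it was 0.12. It was 0.70 again in the highest class. Only larger changes can pass the test among genes with few fragments. In the highest class the SE was 0.14, and 10.8% of the genes were called with a change of at least 1, against 5.78% in the ninth class. With 10 classes by mean log2 CPM in place of RPKM, falls also depended on abundance. They went from 12.7% in the lowest of these classes to 22.5% in the highest, and rises from 5.95% to 16.3%, with 19.1% in the seventh.

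**Figure D2:**
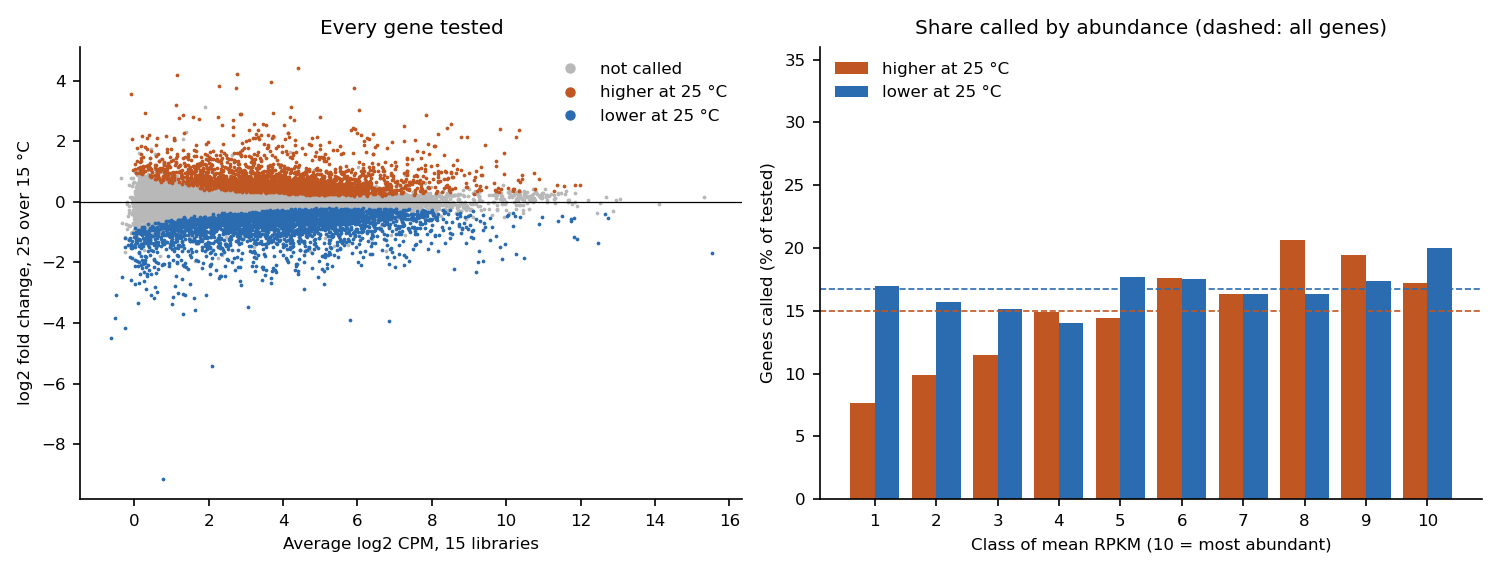
Left, log2 fold change of each of the 17818 genes tested (y axis) against average log2 CPM (x axis), coloured by the call. Right, the percent of genes called higher and lower (y axis) in each of 10 equal classes of mean RPKM (x axis), with the shares over all genes, 15.0% and 16.7%, as dashed lines. Rises were fewest in the lowest class (7.69%) and falls most frequent in the highest (20.0%).

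The calls also varied with gene structure. Genes of many exons that changed had mostly fallen, and genes of few exons rose slightly more often than they fell. Among the 2628 single-exon genes tested, 16.7% were higher and 15.0% lower at 25 °C, and among the 5798 genes of 2 to 4 exons 15.9% and 13.4%. With 5 to 9 exons (4761 genes) the shares were 16.1% and 16.6%, and with 10 to 19 exons (3229 genes) 13.2% and 19.2%. Of the 1402 genes of 20 or more exons, 8.13% were higher and 28.2% lower, 114 genes against 395. The median change over all genes of this class was -0.12 on the log2 scale, and that of single-exon genes was 0.04. The median SE of a single gene was 0.11 in the former class, about as large as its shift, and 0.21 in the latter, larger than its shift.

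Gene length, introns included, gave the same picture. Genes under 1 kb were higher in 14.9% and lower in 13.7% of cases, and those of 1 to 2 kb in 15.9% and 12.6%. From 10 to 30 kb (3501 genes) the shares were 12.1% and 23.2%. The 513 genes of 30 kb or more were higher in 9.16% and lower in 29.8%, with a median change of -0.14. Genes that fell had a median of 6 exons, a length of 6104 bp, and 1615 bp of exon, whereas genes that rose had 4 exons, 4167 bp, and 1312 bp. The genes not called lay close to the latter, with 5 exons, 4278 bp, and 1212 bp. Across the 17818 genes the Spearman correlation of the log2 change was -0.092 with the number of exons, -0.097 with gene length, and -0.071 with exon length. These are weak, and genes are not independent replicates.

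**Figure D3:**
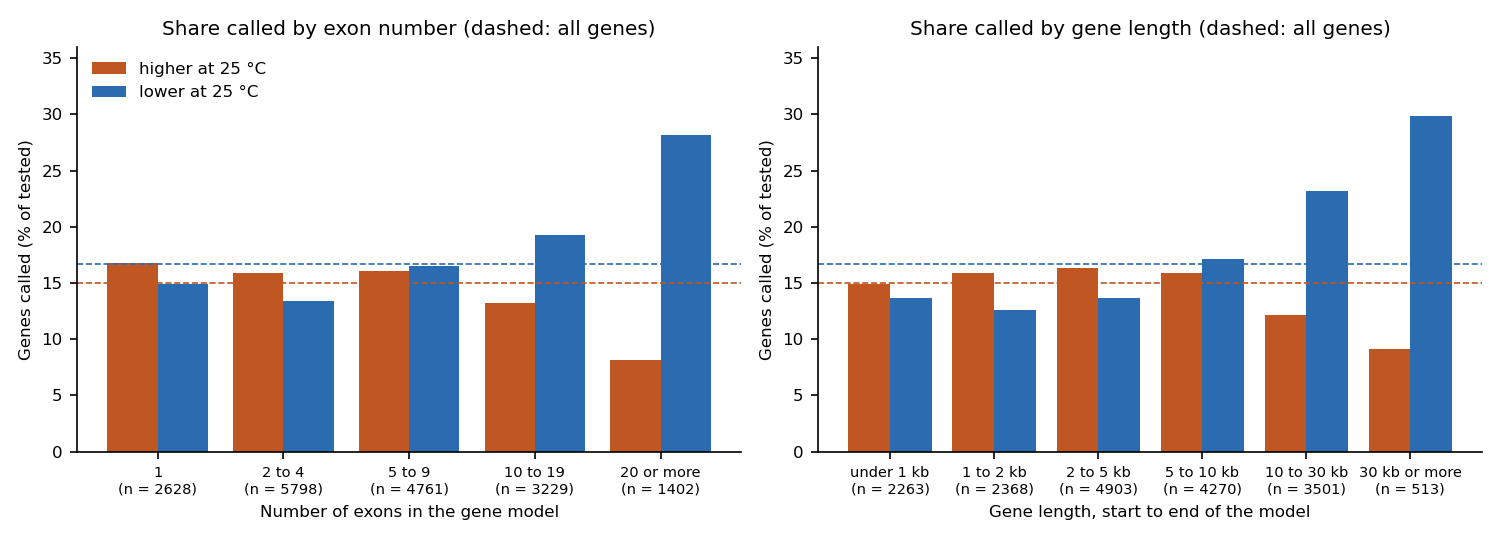
Percent of genes called higher or lower at 25 °C (y axis) by number of exons (left) and by gene length (right), with the number of genes tested under each class. Dashed lines give the shares over all genes, 15.0% and 16.7%. The share called lower reached 28.2% at 20 or more exons and 29.8% at 30 kb or more, while the share called higher dropped to 8.13% and 9.16%.

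Since genes of many exons also had more counts (Spearman correlation of 0.47 with log2 CPM across genes), the comparison was repeated within 4 equal ranges of log2 CPM. From the lowest to the highest range, genes of 20 or more exons were lower at 25 °C in 8 of 26, 18 of 60, 92 of 367, and 277 of 949 cases, which is 25.1% to 30.8%, and higher in 0%, 6.67%, 8.45%, and 8.32%. Single-exon genes were lower in 13.5%, 14.0%, 14.5%, and 26.9%, and higher in 10.8%, 20.5%, 25.1%, and 22.4%. Genes of many exons therefore leaned to falls at every level of abundance, whereas single-exon genes did so in the lowest and the highest range. Within one class of length the number of exons still parted the longest genes, but not those of 5 to 10 kb. Of genes of 30 kb or more, those of 20 or more exons (376 genes) were higher in 6.12% and lower in 32.4%, and the 27 of 2 to 4 exons were higher in 33.3% and lower in 11.1%. Of genes of 10 to 30 kb, 20 or more exons gave 8.73% and 27.0%, and 5 to 9 exons 18.0% and 21.0%. The 205 of 2 to 4 exons in that range leaned to falls, with 15.6% and 23.9%. Of genes of 5 to 10 kb, the 29 of 20 or more exons were higher in 13.8% and lower in 13.8%. The 778 of 2 to 4 exons there were higher in 16.3% and lower in 19.4%.

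The gene models came from 2 sources, the JGI models and models assembled from reads with TACO, and 1038 of the 1402 genes of 20 or more exons were TACO models. The share of genes lower at 25 °C was 15.2% for the JGI models (11852 genes), 21.2% for TACO models that share an exon with a JGI model (3828 genes), and 17.2% for other TACO models (2138 genes). The shares higher were 16.2%, 12.7%, and 12.0%. At 20 or more exons the sources were alike in kind, with 8.24% higher and 32.7% lower for JGI and 8.09% and 26.6% for TACO. Between 10 and 19 exons they were less so, with 14.1% and 16.6% for JGI and 12.1% and 22.4% for TACO. Models that overlap another on the same strand, among which fragments may be split or dropped, were lower in 24.7% and higher in 12.4% (1197 genes), against 16.1% and 14.9% for models without any overlap (15351 genes). Strand made no visible difference, with 16.6% lower on the plus strand and 16.8% on the minus strand.

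The leaning of genes of many exons to falls was present with each library left out, where 22.0% to 32.3% of the genes of 20 or more exons were lower and 6.63% to 8.06% higher. With all libraries thinned to the lowest total, the shares were 23.8% and 5.91%. With an offset that removes from each library any smooth trend with exon length, the shares came to 20.5% and 14.8% for genes of 20 or more exons, and to 21.4% and 18.3% for genes of 30 kb or more. The median change of genes of 20 or more exons was then -0.020 in place of -0.12, and the correlation of the log2 change with the number of exons -0.047 in place of -0.092. Most of the asymmetry was thus lost when trends with exon length were taken out by this construction, and the source of the trend was not tested.

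The same question was asked of the libraries as wholes, by the composition of their fragments, with an exact two-sided permutation test over the 252 divisions of 10 libraries into groups of 5. The smallest p this design allows is 0.0079, and p-values were adjusted over the 5 measures taken. Genes of at least 5 kb took 62.3%, 62.3%, 58.7%, 56.6%, and 61.6% of the fragments in the 15 °C replicates and 55.4%, 54.9%, 55.8%, 54.4%, and 58.2% in the 25 °C replicates. The groups overlapped, since replicate 5 at 25 °C lay above replicate 4 at 15 °C. The means were 60.3% ± 2.53 and 55.7% ± 1.47 (SD, n = 5), with an exact permutation p of 0.016 and an adjusted p of 0.040. The number of exons of the gene a fragment fell on averaged 12.5 ± 0.85 at 15 °C and 10.9 ± 0.45 at 25 °C (SD, n = 5), with the same p and adjusted p by the exact permutation test.

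These differences rested to a large part on the gene with most counts, which is 14963 bp long and has 25 exons. Without this gene, an alternative chosen after the data were seen, genes of at least 5 kb took 56.9% at 15 °C and 54.6% at 25 °C (exact permutation p of 0.11, adjusted 0.14), and the mean number of exons was 11.5 and 10.6 (p of 0.095, adjusted 0.14). Leaving out 1 library raised the adjusted p of both measures to between 0.060 and 0.079 in 7 of 10 cases, which were replicates 2, 3, and 5 at 15 °C and replicates 1 to 4 at 25 °C, with differences from -5.52 to -4.10 percentage points and from -1.92 to -1.41 exons over all 10. The direction was kept in each.

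The remaining measures did not pass the test. Single-exon genes took 4.52% ± 0.24 of the fragments at 15 °C and 4.48% ± 0.079 at 25 °C (SD, n = 5, exact permutation p of 0.79, adjusted 0.86). TACO models took 35.1% ± 1.61 and 35.2% ± 0.93 (p of 0.86, adjusted 0.86). The 100 genes with most counts in each library took 38.7% ± 2.26 and 35.7% ± 1.42 (p of 0.056, adjusted 0.093). When each gene was weighted by its RPKM instead of its counts, single-exon genes made up 11.3% at 15 °C and 9.89% at 25 °C, which did pass (exact permutation p of 0.0079, the smallest possible, adjusted 0.040). Without the genes that are among the 10 with most counts in any library they took 5.78% and 5.36% of the fragments (same p and adjusted p).

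**Figure D4:**
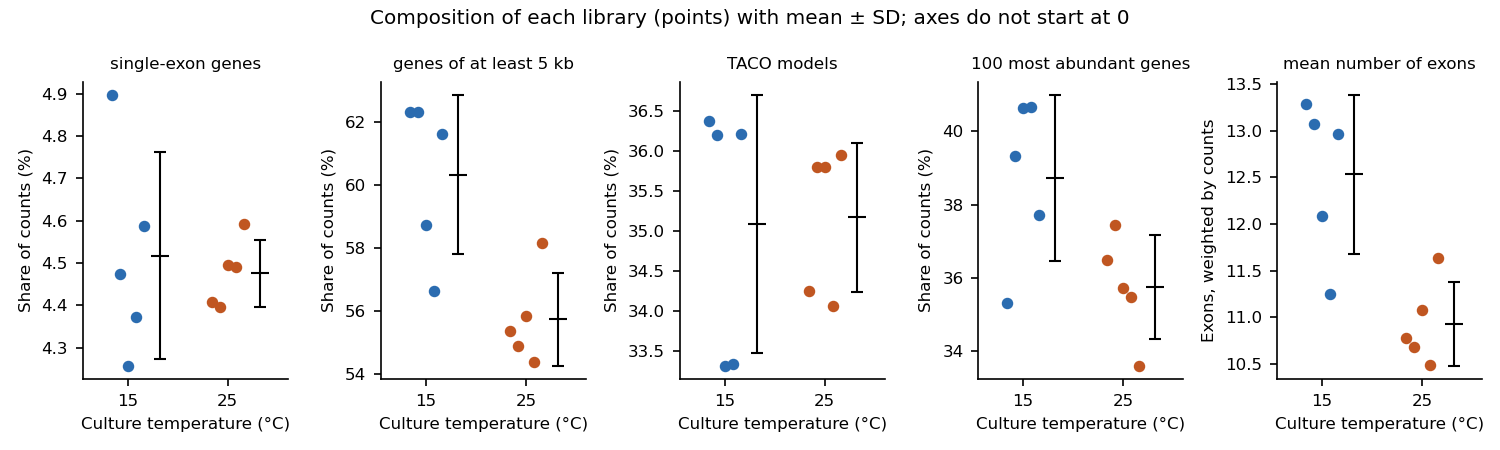
Composition of each library at 15 and 25 °C (x axis). Points are libraries and bars are means with their SD over 5 libraries, as percent of fragments in the first 4 panels and as the mean number of exons in the last. The y axes do not start at 0. Genes of at least 5 kb fell from 60.3% to 55.7% of the fragments and the mean number of exons from 12.5 to 10.9, and only replicate 4 at 15 °C lay below the highest 25 °C library.

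Along the scaffolds, neighbouring genes tended to change alike. The models lie on 4660 scaffolds, many of them short. For adjacent models that do not overlap and were both tested, the outcome depended on their orientation. In 5398 pairs on the same strand, the neighbour of a gene that rose had itself risen in 28.9% of cases and the neighbour of a gene that fell had fallen in 30.3%, against 15.0% and 16.7% of all genes. In 3191 head-to-head pairs, whose start sites face each other, the shares were 23.8% and 19.9%. In 2778 tail-to-tail pairs, whose ends face each other, they were 16.6% and 14.1%, close to the shares over all genes. The Spearman correlation of the log2 changes of the 2 members was 0.23, 0.096, and -0.013 in the same order. The share of called genes itself differed by orientation, so the shares over all genes are only a rough baseline. Counting both members of each pair, 1593 had risen and 1969 had fallen on the same strand. Head to head these were 1044 and 945, and tail to tail 937 and 864. Pairs share a scaffold and many genes enter 2 pairs, so these are descriptions without a test.

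Overlapping pairs on the same strand (214 pairs) had a correlation of 0.58, with 39.4% and 53.3% of neighbours changed alike. Among pairs without overlap, the likeness was greatest in the closest same-strand pairs but was not limited to them. Same-strand pairs less than 1 kb apart (794 pairs) had a correlation of 0.36, with 35.4% and 39.4% of neighbours changed alike. Pairs 10 kb or more apart (1028 pairs) still had 0.21, with 31.6% and 30.8%. Head-to-head pairs less than 1 kb apart (1364 pairs), which can share a promoter region, had only 0.084, with 23.1% and 16.1%. Falls were less frequent in these pairs than among all genes, with 299 members fallen and 484 risen. The 16.1% is therefore above the share of falls in the same pairs. Models on the same strand may be pieces of one gene, and the part of this in the likeness was not tested. Taking all tested models in scaffold order, the correlation was 0.13 between direct neighbours, 0.060 at 2 places, and 0.029 at 3 places, and from 7 places on it lay between -0.033 and 0.036. Leaving out each library in turn kept the correlation of same-strand pairs between 0.22 and 0.23, and thinning gave 0.22.

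**Figure D5:**
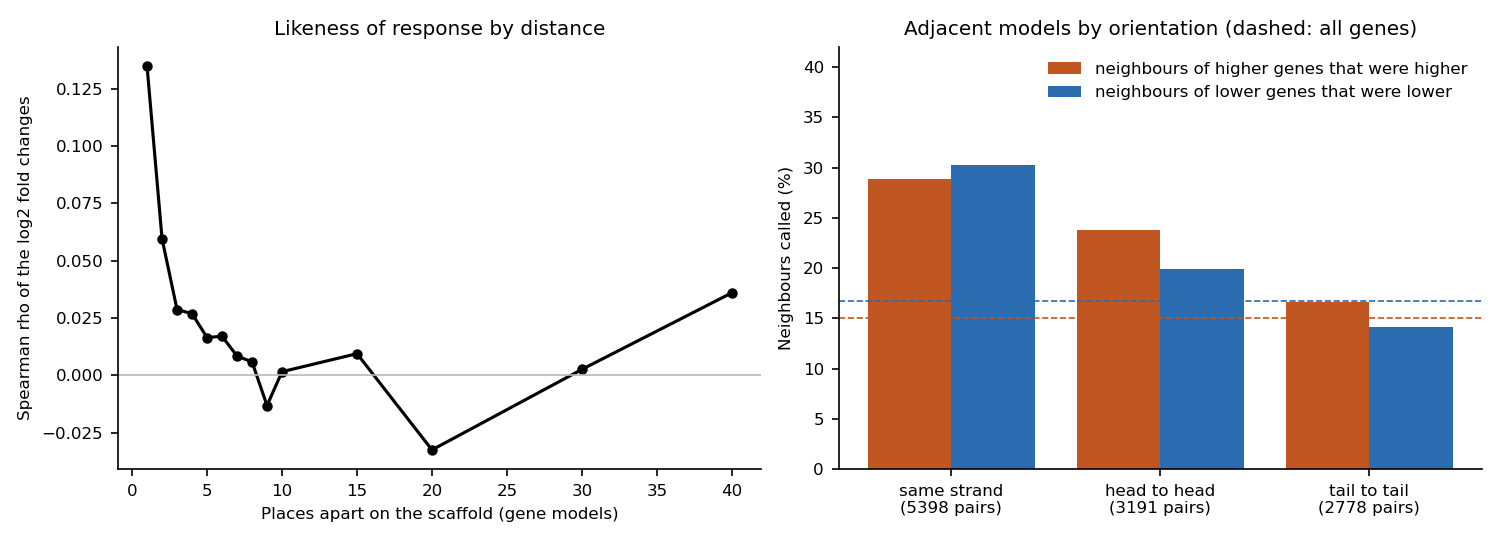
Left, Spearman correlation of the log2 fold changes of tested genes (y axis) by the number of places between them on the scaffold (x axis), from 0.13 for direct neighbours to values about 0 from 7 places on. Right, percent of neighbours that changed in the same direction (y axis) for adjacent non-overlapping models by orientation, with the shares over all genes as dashed lines. Same-strand pairs were highest (28.9% and 30.3%) and tail-to-tail pairs lay close to the dashed lines.

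Most called genes nonetheless changed without a called neighbour in the same direction. Runs of 3 or more consecutive tested genes of one direction held 372 of the genes that rose (14.0%) and 397 of those that fell (13.3%). There were 12 runs of 6 or more, 4 of rises and 8 of falls. Because no product names were at hand, these clusters are described by position only.

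The longest run was of 12 genes that rose, on scaffold 297 between 183228 and 265847. Their log2 changes ranged from 0.53 to 2.53 with a median of 1.84. Of the 12, 10 did not overlap between the temperatures, against 58.6% of all called genes. All but 2 lie on the minus strand, and 4 have a single exon. The last gene of the run (258161 to 265847, 2 exons) had the highest level, with 141 ± 9.57 CPM at 15 °C (131 to 154) and 618 ± 183 CPM at 25 °C (447 to 869, SD, n = 5). The first (183228 to 202070, 5 exons) rose the most, from 3.37 ± 0.73 to 20.4 ± 6.45 CPM. The third (208055 to 212204, 3 exons) rose from 33.4 ± 3.05 to 101 ± 25.5 CPM. The smallest change, 0.53, was that of a model of 9 exons on the plus strand (220092 to 231336), which encloses another member of the run on the same strand. The tested models on either side of this stretch were not called higher.

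The longest runs of falls had 10 genes. The one on scaffold 86 (315367 to 436596) lies entirely on the plus strand, with changes from -1.37 to -0.58 and a median of -1.15, and 7 of its 10 genes did not overlap between the temperatures. The one on scaffold 116 (568469 to 620674) lies entirely on the minus strand, with changes from -1.48 to -0.42, and only 2 of its genes were without overlap. Among all called genes, 58.6% were without overlap. Of the 12 runs of 6 or more, 7 kept to one strand and 5 held genes of both strands, among them that on scaffold 297 and the run of 7 falls on scaffold 45 (540851 to 631058, 4 genes on the plus strand). The 9 rises on scaffold 363 (64113 to 211506) are all on the minus strand, and the 8 rises on scaffold 402 (53234 to 187171) are all on the plus strand and have 1 or 2 exons each, with changes from 0.58 to 1.04. A run of 6 falls on scaffold 9 (1672637 to 1832299), also all on the plus strand, reached from -0.60 to -4.16. Near-identical copies in such clusters can share fragments, so the values of single members are uncertain, and this could not be checked without the sequences.

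At the scale of whole scaffolds the response was fairly even. On the 247 scaffolds with at least 20 tested genes, the share of genes that rose had a median of 15.0% and reached over 19.1% on the highest quartile of scaffolds, and the share that fell had a median of 16.7% and reached over 21.4% there. Scaffold 297, with the longest run, had the highest share of rises (12 of 26 genes, 46.2%), and scaffold 269 that of falls (13 of 29 genes, 44.8%). The median log2 change of a scaffold lay between -0.33 and 0.27. Genes alone on their scaffold (1030 genes) were called less often, with 9.42% higher and 13.0% lower, against 15.3% and 17.6% on scaffolds of 100 or more models. They also had fewer counts, with a median log2 CPM of 1.49 against 3.87, and a larger median SE of 0.24 against 0.15. The first and last models of scaffolds with at least 20 models (411 genes) were higher in 13.4% and lower in 17.5%, against 15.5% and 17.4% for the models between them.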

How the data were processed

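Polyadenylated RNA of 15 libraries was sequenced, 5 each from polyps at 15, 20, and 25 °C. The authors deposited raw counts of fragments per gene, without normalization, in 2 columns per library (L1 and L2), which the labels do not explain and which were summed. The submitters' processing notes name Trimmomatic 0.38, HISAT2 2.1.0, StringTie 2.0, and featureCounts. The study's methods give featureCounts with default parameters, which count without strand, and its supplement names the Ensembl Metazoa genome. No source says if these steps also gave the deposited counts. Scaffold coordinates are 1-based as in the deposited gene models. The length column of the deposited table (in bp) equaled the summed exon length for all 27527 models.

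Low genes were removed with filterByExpr, libraries were scaled by TMM, and genes were tested with the robust quasi-likelihood fit of edgeR 4.0.16 (R 4.3.3). All 15 libraries entered the fit, with the contrast 25 minus 15 °C and Benjamini-Hochberg adjustment over the 17818 genes kept. CPM was scaled by TMM. Shares of fragments were compared over libraries with an exact permutation test in Python 3.11.15 (numpy 2.4.6, pandas 2.3.3), adjusted over the 5 measures. Gene overlaps and neighbours were taken from the model coordinates. Figures were drawn with matplotlib 3.10.9.

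Alternatives were DESeq2 1.42.0, limma-voom (limma 3.58.1), upper-quartile normalization, other filters, the 10 libraries alone, a replicate block, a loess offset on exon length, each column alone, thinning with a fixed seed, leaving out the most counted genes or overlapping models, and leaving out each library. DESeq2 left 1 adjusted p undefined. The procedures were tested on simulated data.

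The text names the 2 strongest rises and the 2 strongest falls among called genes whose groups did not overlap and whose average log2 CPM was not below 0. Gene lists and marker lists by product name were not used, since 0 identifiers matched the table of symbols. The groups, rules, and classes were chosen with earlier results of these data known. For a count of 0 the upper limit was set at 3 counts, which covers counting error only and was 0.851 CPM in the library with the lowest total.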

Additional observations from a re-analysis of the deposited data

Results flagged for a closer look

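Among 26 groups of 5 libraries examined, 2 held a library whose gap to the nearest of the others was over 0.71 of the group's whole range (Dixon's critical value), and chance alone flags about 1 in 20 groups. Genes called lower took 26.5% of the fragments in replicate 4 at 15 °C, and 29.8% to 30.4% in the other 15 °C libraries. They took 18.4% in replicate 5 at 25 °C, and 15.4% to 16.1% in the other 25 °C libraries. Each of these libraries thus lay nearer to the other temperature than the rest of its group. The same 2 libraries were the ones that overlapped between the temperatures in the share of genes of at least 5 kb and in the mean number of exons. Without replicate 4 at 15 °C 6175 genes were called, and without replicate 5 at 25 °C the adjusted p of both composition measures stayed under the threshold.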

How the results depend on the processing

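The 5641 calls (2665 higher, 2976 lower) were within 1.5 times of these counts under each alternative except those given next. A minimum absolute log2 change of 1 left 1249 calls, 491 higher and 758 lower, and the L2 columns alone gave 1747 higher. DESeq2 called 5736 genes and limma-voom 5468. Thinning left 3949 and the L2 columns alone 3769, of fewer fragments by construction. Leaving out 1 library gave 4683 to 6175 calls, 2233 to 3065 higher and 2403 to 3110 lower. No gene among the 5641 was called in the opposite direction by any alternative. The deviations of same-numbered libraries had correlations from -0.089 to 0.21, over 0.1 in 2 of 5 pairs. Their mean was 0.068, against -0.016 over the 20 pairs of unlike number. These values cannot exclude a pairing. The numbers were not read as pairs because no pairing is stated. A replicate block gave 5905 calls (2797 higher, 3108 lower), and the block with the loess offset 5903.

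For genes of at least 5 kb, the difference of -4.60 percentage points was no longer past the threshold with the L2 columns alone (-4.33), without the genes among the 10 with most counts (-1.90), or without the gene with most counts (-2.40). For the mean number of exons, -1.60 became -1.40, -0.91, and -0.91 in the same order, also past it no longer. Weighted by RPKM, these differences were -2.54 points (31.9% and 29.3%) and -0.45 exons (6.25 and 5.80), both still past it. With all libraries thinned to the lowest total, the differences by counts were -4.59 points and -1.61 exons, both still past it. Leaving out 1 library gave -5.52 to -4.10 points and -1.92 to -1.41 exons. Single-exon genes passed it by RPKM (-1.43) and without the genes among the 10 with most counts (-0.42), and turned positive with the L1 columns alone (0.065) and without overlapping models (0.041), from -0.11 to 0.053 with a library left out. The difference for TACO models, 0.082 points with all genes and libraries, was -1.19 by RPKM, -0.51 with the L2 columns alone, -1.97 without the gene with most counts, and -2.11 without the genes among the 10 with most counts, from -0.36 to 0.41 with a library left out. That for the 100 genes with most counts, -2.99, was 0.82 by RPKM, 0.52 without the gene with most counts, and 1.63 without the genes among the 10 with most counts. With a library left out it ran from -3.84, without replicate 1 at 15 °C, where it passed the threshold, to -2.45. The cause of these shifts was not tested, beyond the weight of the genes left out.

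Without a filter 24617 genes were tested, among them the low genes that the filter removes. The correlation of the log2 change with the number of exons was then 0.0012, and that of tail-to-tail neighbours 0.016. With the L1 columns alone the latter was 0.0049. The cause of these shifts was not tested. Of the other values, for named genes, structure classes, and neighbours, 538 moved by less than their leave-one-out error (for named genes, kept their call), and 63 moved by more without a change of sign. For structure classes and neighbours these counts include the leave-one-out fits that gave the error itself. Such fits lie mostly within it by construction. The named genes kept their direction and call in every alternative that tested them. NEMVEDRAFT_v1g144189 did not pass the filter in the 10 libraries alone, with either column alone, after thinning, or with at least 10 counts in every library. Depth limits the low end: changes of genes in the lowest class of RPKM, where the median SE was 0.29, were detectable only if large.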
